A study of Mus musculus with 12 samples.

Results

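The 10 mouse genes described here carry nitrogen from ammonia and amino acids into urea in periportal hepatocytes, the liver cells nearest the incoming blood: Nags, Cps1, Otc, Ass1, Asl, Arg1, Slc25a15, Gls2, Hal and Sds. They were chosen by name, as the enzymes and the carrier of the urea cycle together with 3 enzymes that release ammonia in the same cells, and were matched by the symbol in the annotation field of both deposited tables, which gave 10 of 24453 genes. All 10 passed the filter on low values used for testing. RNA from liver was sequenced in C57Bl/6J mice that ate a high-fat diet (HFD, 45% of calories from fat) for 8 weeks, with 3 libraries in each of 4 groups. L-iAMPK HFD+dox and L-iAMPK HFD mice carried the alleles ColA-AMPKa1(312)/AMPKa1(312) and R26-rtTA/rtTA together with Albumin-Cre, a Cre driven by a hepatocyte promoter, with and without doxycycline (dox). iAMPK HFD+dox and iAMPK HFD mice carried the same ColA-AMPKa1(312)/AMPKa1(312) and R26-rtTA/rtTA alleles without Cre, with and without doxycycline. AMPK is a kinase that responds to low cellular energy, and the labels give it as active in L-iAMPK HFD+dox livers alone. All 4 groups therefore share the inducible transgene, the rtTA activator and the diet, and the age and sex of the animals were not in the labels used here.

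In the urea cycle, mitochondrial carbamoyl phosphate synthetase (Cps1) fixes ammonia, and it needs N-acetylglutamate made by N-acetylglutamate synthase (Nags) to be active. Ornithine transcarbamylase (Otc) makes citrulline in the mitochondrion, argininosuccinate synthase (Ass1) and lyase (Asl) turn citrulline into arginine in the cytosol, arginase (Arg1) releases urea, and the carrier Slc25a15 returns ornithine to the mitochondrion. Liver glutaminase (Gls2), histidine ammonia-lyase (Hal) and serine dehydratase (Sds) release ammonia from glutamine, histidine and serine. These genes are read mainly in periportal hepatocytes, while a narrow ring of pericentral hepatocytes takes up the ammonia that escapes and fixes it into glutamine.

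Promoter sequences of 3 of these genes are shown because Hal and Slc25a15 are the members called below and Ass1 is the member whose level followed Slc25a15 most closely. Each runs 5′ to 3′ on the gene's own strand from 250 bases before to 50 bases after the transcription start, and comes from RefSeq on GRCm38.p6. The Hal promoter lies at chr10:93488518-93488817 on the plus strand, the Slc25a15 promoter at chr8:22398572-22398871 on the minus strand and the Ass1 promoter at chr2:31470020-31470319 on the plus strand. Capitals mark the letters TTTATA, which read TATAAA on the other strand.
Hal: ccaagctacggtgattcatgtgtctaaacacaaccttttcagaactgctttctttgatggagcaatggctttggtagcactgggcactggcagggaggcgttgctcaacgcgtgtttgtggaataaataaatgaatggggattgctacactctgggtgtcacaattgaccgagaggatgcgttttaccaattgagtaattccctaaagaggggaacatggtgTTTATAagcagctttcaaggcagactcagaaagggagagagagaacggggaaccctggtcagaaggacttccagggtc
Slc25a15: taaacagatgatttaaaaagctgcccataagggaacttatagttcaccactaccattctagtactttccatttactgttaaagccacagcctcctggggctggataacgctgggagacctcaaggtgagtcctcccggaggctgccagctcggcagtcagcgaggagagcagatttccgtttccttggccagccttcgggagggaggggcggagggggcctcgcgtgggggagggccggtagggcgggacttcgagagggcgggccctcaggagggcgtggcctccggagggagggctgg
Ass1: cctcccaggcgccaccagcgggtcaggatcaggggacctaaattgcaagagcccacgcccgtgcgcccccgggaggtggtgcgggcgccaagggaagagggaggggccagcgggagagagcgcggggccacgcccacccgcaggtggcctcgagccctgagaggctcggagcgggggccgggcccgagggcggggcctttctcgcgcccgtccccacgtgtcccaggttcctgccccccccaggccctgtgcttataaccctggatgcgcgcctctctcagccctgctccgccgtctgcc

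The RefSeq table held 6 promoters for 5 of the 10 genes (Ass1, Hal, Nags, Otc and Slc25a15, which had 2). They were searched on both strands for TATAAA, for TTGCNNCAA, TGACGTCA (CREB), TGTTTAC (forkhead factors) and CAAAGTCCA (HNF4), none of which contains another. The Hal promoter had the TATA letters 28 to 23 bases before its start, a match that 13.6% of all 32851 promoters of this length hold. None of the other 4 motifs, which 2.08%, 1.79%, 3.65% and 0.475% of all promoters hold, occurred in the 6 windows. The printed promoters differed in base composition. That of Ass1 had a GC content of 74.0% with 27 CpG sites and that of Slc25a15 60.7% with 15, while that of Hal had 47.7% with 7, against medians of 52.7% and 7 over all promoters.

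In the 11 of 12 libraries whose whole reads could be recovered from the scaled tag table, 13569437 to 20696899 reads lay in genes. Prkaa1, the gene of the induced AMPK α1 subunit, had 1265, 947 and 1003 FPKM in L-iAMPK HFD+dox livers, against 3.52, 3.84 and 3.16 in L-iAMPK HFD, 2.64, 3.06 and 2.84 in iAMPK HFD+dox and 4.12, 3.28 and 2.62 in iAMPK HFD livers. Hepatocyte markers were abundant in all groups (Alb 25642 to 38784 FPKM). In limma, fitted on log2(FPKM + 0.5) over 12614 genes with Benjamini-Hochberg adjustment and a threshold of 0.05, the median of all genes moved by -0.13 for doxycycline in L-iAMPK, -0.08 between genotypes on doxycycline, 0.08 between genotypes without it and -0.15 for the interaction. After median-ratio scaling these medians were 0.00, -0.01, -0.00 and 0.01, and for doxycycline in L-iAMPK 1481 of 2914 called genes were higher, against 600 of 3259 on the deposited scale. Between genotypes the higher calls were 1067 of 1983 after this scaling and 581 of 1882 on the deposited scale with doxycycline, and 187 of 439 and 384 of 544 without it, while for the interaction they were 721 of 1445 and 254 of 1663. Within L-iAMPK HFD the libraries stood apart from each other: replicate 1 was the lowest of its group for 10 of the 10 genes and the lowest of all 12 libraries for 7, and replicate 3 was the highest of its group for 9. In iAMPK HFD+dox, replicate 1 was the highest of its group for 9. Nothing in the labels says that the libraries of a group came from separate animals, so p-values measure only the spread between these samples, and in bulk liver fewer cells of a type and less RNA per cell cannot be told apart.

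All 10 genes were highly expressed. Arg1 was the most abundant, with a mean of 646 FPKM over the 12 libraries (rank 68 of 24453 genes), followed by Cps1 with 375 FPKM (rank 127), Asl with 203, Otc with 193 and Ass1 with 159. Sds (116), Gls2 (112), Hal (77.4) and Slc25a15 (60.3) lay below them, and Nags, whose product makes only an activator, was lowest with 25.8 FPKM (rank 1913). FPKM are per transcript length, so these levels can be compared between genes, and between 928 reads (Nags) and 60537 reads (Cps1) per library lay behind them. The spread over the 12 libraries differed between genes: the highest library had 3.11 times the lowest for Hal, 2.59 times for Sds and 2.50 times for Cps1, but 1.36 times for Nags and 1.46 times for Arg1.

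**Figure D1:**
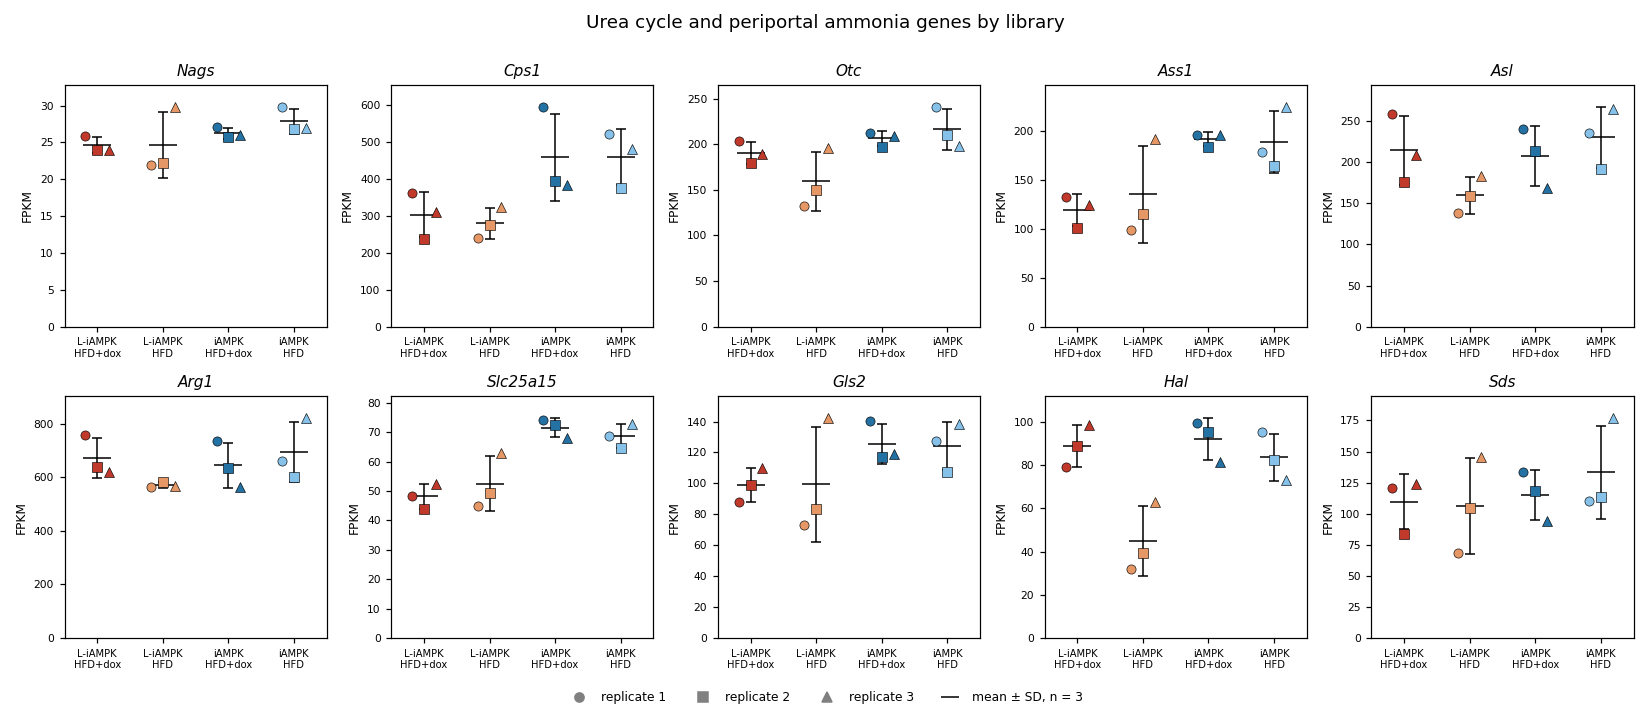
FPKM of each of the 10 genes (y axis, from 0) in the 12 libraries, by group (x axis). Points are libraries, with the shape giving the replicate, and bars are the mean ± SD of 3 libraries. Hal is low in the 3 L-iAMPK HFD libraries (32.0 to 63.1 FPKM), and Slc25a15 is lower in the 6 L-iAMPK libraries (43.9 to 63.0) than in the 6 iAMPK libraries (64.8 to 74.2).

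The highest mean belonged to an iAMPK group for all 10 genes, to iAMPK HFD for 6 and to iAMPK HFD+dox for 4. The lowest mean belonged to L-iAMPK HFD for 7 genes and to L-iAMPK HFD+dox for Ass1, Slc25a15 and Gls2. Summed over the 10 genes, FPKM were 2076, 1675 and 1862 in L-iAMPK HFD+dox livers and 1415, 1582 and 1903 in L-iAMPK HFD livers, against 2454, 2055 and 1911 in iAMPK HFD+dox livers and 2268, 1939 and 2477 in iAMPK HFD livers. All 6 iAMPK sums exceeded the 3 of L-iAMPK HFD, while the L-iAMPK HFD+dox sums overlapped those of every other group.

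The first comparison asked what doxycycline, and with it active AMPK, did in L-iAMPK livers. Hal, which starts histidine breakdown by releasing its amino group as ammonia, was the 1 of 10 genes that rose, about 2-fold. It had 79.3, 88.8 and 98.5 FPKM in L-iAMPK HFD+dox livers, against 32.0, 39.4 and 63.1 FPKM in L-iAMPK HFD livers. The groups did not overlap, as in 9.06% of all genes in this direction, and the lowest treated library exceeded the highest untreated one, replicate 3. The log2 fold change was 1.03 ± 0.21 (SE, limma adjusted p = 0.0066), and the call was kept in 22 of 22 alternatives, with 1.30 when L-iAMPK HFD replicate 3 was left out and 0.82 without replicate 1. Of all genes tested 25.8% were called in this comparison, 4.76% higher and 21.1% lower, beside 1 of the 10 genes higher and 0 lower. Stellate cell markers moved in the same comparison, with summed levels of 83.6, 94.3 and 107 FPKM in L-iAMPK HFD+dox livers, against 149, 168 and 122 FPKM in L-iAMPK HFD livers (0 of 5 rose and 4 fell). Cholangiocyte markers summed to 17.6, 20.9 and 22.5 FPKM, against 91.0, 153 and 38.0 FPKM (1 of 5 fell), and 3 of 6 endothelial markers fell, with sums that overlapped. The part of these markers in the Hal result was not tested. Hal lies at chr10:93488768-93516743 on the plus strand (mm10), and its levels in iAMPK HFD+dox and iAMPK HFD livers were 92.2 ± 9.60 and 83.7 ± 11.1 FPKM (SD, n = 3 each). The L-iAMPK HFD+dox level of 88.9 ± 9.58 FPKM overlapped both, and the L-iAMPK HFD level of 44.9 ± 16.2 FPKM was the one set apart.

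The enzymes that fix ammonia and make citrulline were not called for doxycycline in L-iAMPK. Nags (chr11:102145513-102149528, plus strand) had 25.9, 24.0 and 24.0 FPKM in L-iAMPK HFD+dox against 22.0, 22.1 and 29.8 FPKM in L-iAMPK HFD livers, a log2 difference of 0.01 with a 95% interval of -0.21 to 0.24. Cps1 (chr1:67123027-67231267, plus strand) had 361, 238 and 311 FPKM against 239, 276 and 323 FPKM, a difference of 0.11 with an interval of -0.34 to 0.56. Both pairs of groups overlapped. Otc (chrX:10252305-10321024, plus strand) had 203, 179.6 and 189 FPKM in L-iAMPK HFD+dox against 133, 149 and 196 FPKM in L-iAMPK HFD livers, overlapping only through replicate 3 of L-iAMPK HFD. Its log2 difference of 0.28 ± 0.13 had a limma adjusted p of 0.130, which became 0.041 after median-ratio scaling (difference 0.43) and 0.00988 without L-iAMPK HFD replicate 3 (difference 0.43).

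The cytosolic enzymes Ass1, Asl and Arg1 were not called for doxycycline in L-iAMPK either. Ass1 (chr2:31470270-31520670, plus strand) had 132, 101 and 124 FPKM in L-iAMPK HFD+dox against 98.6, 115 and 192 FPKM in L-iAMPK HFD livers, a log2 difference of -0.13 with an interval of -0.60 to 0.34. Asl (chr5:130011503-130024331, minus strand) had 259, 176 and 209 FPKM against 138, 159 and 183 FPKM, with an overlap of 1 library on each side, a difference of 0.41 ± 0.18 and an adjusted p of 0.110. Arg1 (chr10:24915207-24927470, minus strand) had 759, 641 and 619 FPKM against 566, 584 and 567 FPKM. The Arg1 groups did not overlap, which held for 9.06% of all genes in this direction and 34.9% in the other, and the log2 difference of 0.23 ± 0.13 was not called (limma adjusted p = 0.217). Slc25a15 had 48.5, 43.9 and 52.4 FPKM in L-iAMPK HFD+dox against 45.0, 49.5 and 63.0 FPKM in L-iAMPK HFD livers, with a difference of -0.11 (interval -0.36 to 0.14). The other ammonia-releasing enzymes also overlapped: Gls2 (chr10:128194635-128210004, plus strand) differed by 0.05 (interval -0.42 to 0.51) and Sds (chr5:120476547-120483905, plus strand) by 0.09 (interval -0.54 to 0.73). The median of the 10 log2 differences was 0.10, beside -0.13 over all genes, with 8 above 0. All 10 were above 0 after median-ratio scaling, and 5 without L-iAMPK HFD replicate 1.

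**Figure D2:**
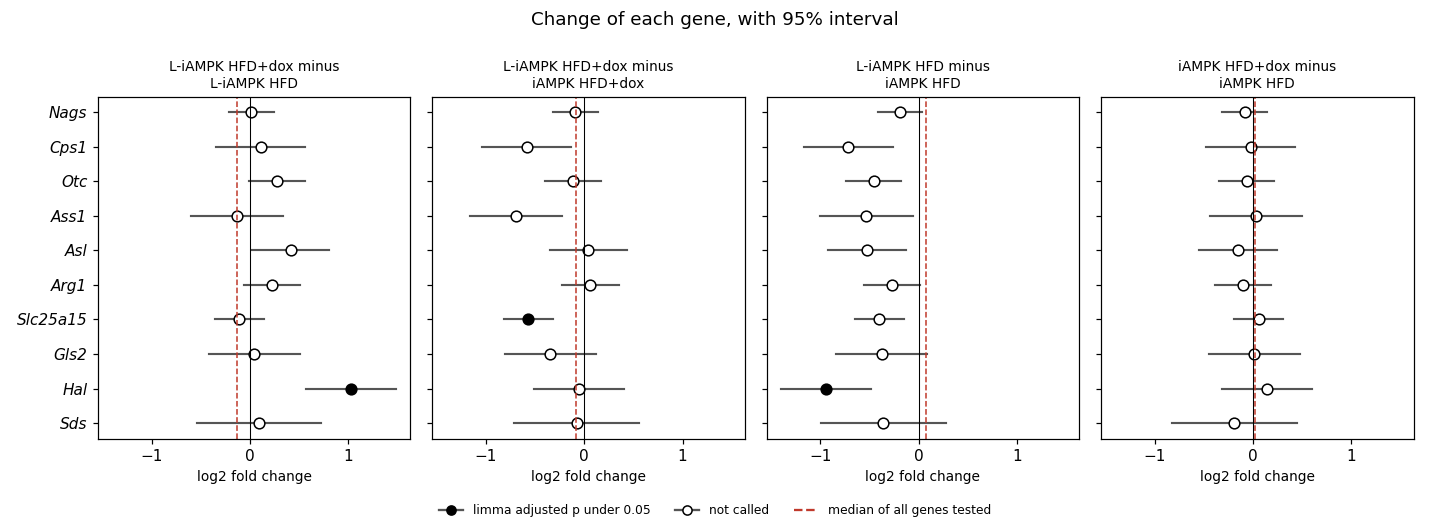
Log2 fold change of each gene (x axis) in 4 comparisons (panels), with its 95% interval. Filled points are genes with a limma adjusted p under 0.05, and the dashed line is the median of all genes tested. Hal in L-iAMPK HFD+dox minus L-iAMPK HFD, Slc25a15 in L-iAMPK HFD+dox minus iAMPK HFD+dox and Hal in L-iAMPK HFD minus iAMPK HFD are filled.

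The second comparison set both genotypes on doxycycline side by side, where Cre differed and, with it, active AMPK. Cre and active AMPK cannot be told apart there. The ornithine carrier Slc25a15 (chr8:22375550-22398621, minus strand) fell to 48.5, 43.9 and 52.4 FPKM in L-iAMPK HFD+dox livers, against 74.2, 72.6 and 68.1 FPKM in iAMPK HFD+dox livers. The groups did not overlap, as in 23.4% of all genes in this direction, and the log2 fold change was -0.57 ± 0.11 (limma adjusted p = 0.00838). The call was kept in 21 of 22 alternatives and lost in edgeR on recovered reads, where the change was -0.49 with an adjusted p of 0.0708. That fit lacks replicate 2 of iAMPK HFD+dox, so the control arm has 2 libraries there. In the same comparison 0 of 5 stellate cell markers rose and 3 fell, with sums of 83.6, 94.3 and 107 FPKM in L-iAMPK HFD+dox livers, against 94.8, 139 and 157 FPKM in iAMPK HFD+dox livers, and their part in the result was not tested. It was 1 call among 10 genes in a comparison with 14.9% of genes called, 4.61% higher and 10.3% lower.

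Ass1, the enzyme that consumes the citrulline made behind that carrier, came close to the threshold. It had 132, 101 and 124 FPKM in L-iAMPK HFD+dox livers, against 196, 184 and 196 FPKM in iAMPK HFD+dox livers, with a log2 difference of -0.69 ± 0.21 and a limma adjusted p of 0.0515. The groups did not overlap, as in 23.4% of all genes with lower L-iAMPK HFD+dox libraries. Ass1 was called with a filter at 2 FPKM (0.0455), with the replicate number as a block (0.0295), when only these 6 libraries were fitted (0.0106), and without L-iAMPK HFD replicate 1 (0.0343) or 3 (0.0059). Cps1 had 361, 238 and 311 FPKM in L-iAMPK HFD+dox livers, against 595, 395 and 385 FPKM in iAMPK HFD+dox livers, a difference of -0.58 ± 0.21 that was not called (adjusted p = 0.0805). Its groups did not overlap either, but the size rested partly on replicate 1 of iAMPK HFD+dox, without which it was -0.38 (0.186).

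The other members of the cycle were not called between genotypes on doxycycline. Otc differed by -0.11 (interval -0.39 to 0.17), Nags by -0.09 (-0.32 to 0.14), Asl by 0.04 (-0.35 to 0.44) and Arg1 by 0.06 (-0.22 to 0.35). For Gls2 the L-iAMPK HFD+dox libraries had 87.7, 98.9 and 109.9 FPKM and the iAMPK HFD+dox libraries 140.2, 117 and 119 FPKM. They did not overlap, as in 23.4% of all genes in this direction, yet the difference of -0.34 had an interval of -0.81 to 0.12. Hal (-0.05, interval -0.51 to 0.41) and Sds (-0.08, interval -0.71 to 0.56) overlapped. The 10 differences had a median of -0.10, beside -0.08 over all genes, and 8 were below 0, or 6 after median-ratio scaling.

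The third comparison was between the genotypes without doxycycline, where AMPK is labelled inactive in both groups. All 10 genes were lower in L-iAMPK HFD than in iAMPK HFD livers, with a median log2 difference of -0.43. The median over all genes was 0.08, and 34% of genes were below 0. Low values were not particular to these genes: 10 of 11 pericentral markers were also below 0 (median -0.38). So were 8 of 9 tested genes of histidine, serine and glycine breakdown. Of 10 other periportal markers 6 were below 0 and 4 above, and all 6 macrophage markers were above. Hal fell to 32.0, 39.4 and 63.1 FPKM in L-iAMPK HFD livers, against 95.4, 82.2 and 73.4 FPKM in iAMPK HFD livers, a log2 fold change of -0.94 ± 0.21 (limma adjusted p = 0.036). It was the 1 member called, in a comparison with 4.31% of genes called, 3.04% higher and 1.27% lower. The call was kept in 11 of 22 alternatives. It ended without any of the 3 iAMPK HFD replicates (0.0591 to 0.132), without L-iAMPK HFD replicate 1 (0.119) or 2 (0.126), without L-iAMPK HFD+dox replicate 2 (0.053) or 3 (0.052) and without iAMPK HFD+dox replicate 2 (0.0571). It also ended with the replicate number as a block (0.0577), in edgeR (0.0531) and when only these 6 libraries were fitted (0.0862).

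The other urea cycle genes missed the threshold without doxycycline, though 6 of the 10 had an unadjusted limma p under 0.05. Cps1 had 239, 276 and 323 FPKM in L-iAMPK HFD livers, against 522, 375 and 480.4 FPKM in iAMPK HFD livers, without overlap (difference -0.71 ± 0.21, adjusted p = 0.0709). Otc had 133, 149 and 196 FPKM against 241, 210.4 and 198 FPKM (-0.45 ± 0.13, adjusted p = 0.0653). Slc25a15 had 45.0, 49.5 and 63.0 FPKM against 68.7, 64.8 and 73.0 FPKM (-0.40 ± 0.11, adjusted p = 0.0662). In these genes and in Asl (-0.52, adjusted p = 0.107), Arg1 (-0.27, 0.223) and Hal the groups did not overlap, a pattern that 6.8% of all genes showed in this direction. Ass1 (-0.53, 0.153), Gls2 (-0.38, 0.286), Nags (-0.19, 0.279) and Sds (-0.36, 0.458) overlapped through L-iAMPK HFD replicate 3.

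How many genes were called changed when most single libraries were left out, and rose most without L-iAMPK HFD replicate 3. Without L-iAMPK HFD replicate 3, 7 of the 10 fell (Nags -0.33, Cps1 -0.82, Otc -0.61, Ass1 -0.81, Slc25a15 -0.54, Gls2 -0.66 and Hal -1.22, adjusted p 0.00159 to 0.047), in a comparison that then called 11.4% of all genes. Without replicate 1 of the same group 0 of 10 were called by limma (and 0.296% of all genes), with 4 of 10 under 0.05 unadjusted, and edgeR with that library kept called 0. The median of the 10 differences was -0.62 in the first case and -0.32 in the second, and all 10 stayed below 0 in both. Without iAMPK HFD+dox replicate 1, Cps1 (-0.71, 0.0325) and Hal (0.031) were called. Markers of other liver cells also differed in summed level in the same comparison, with 0 macrophage and 0 stellate cell markers called. Macrophage markers summed to 142, 148 and 124 FPKM in L-iAMPK HFD livers, against 89.0, 71.3 and 113 FPKM in iAMPK HFD livers, and stellate cell markers to 149, 168 and 122 FPKM, against 100.4, 128 and 103 FPKM. The macrophage sums did not overlap and the stellate cell sums did. Their part in the result was not tested.

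Doxycycline without Cre was the control for the drug itself. Between iAMPK HFD+dox and iAMPK HFD livers limma called 0 of the 10 genes and 0 of all 12614, with 0 and 786 at an unadjusted p under 0.05, and edgeR called 0. The 10 differences lay between -0.19 (Sds) and 0.14 (Hal), and all 10 pairs of groups overlapped, while 5.78% of all genes lay wholly higher and 4.46% wholly lower with doxycycline. The narrowest interval, that of Nags, was -0.31 to 0.14, and the widest, that of Sds, -0.82 to 0.45. With 3 libraries a group, differences inside these intervals remain compatible with the data.

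The interaction tests whether doxycycline acted differently in the 2 genotypes. In limma 0 of 10 genes passed, with 13.2% of all genes called (2.01% above 0 and 11.2% below), 2 members (Hal and Asl) were under 0.05 unadjusted, and edgeR called 0. Hal had the largest value, 0.89 ± 0.29 (limma adjusted p = 0.0675), which became 1.07 (0.0487) after median-ratio scaling and 1.16 (0.00573) without L-iAMPK HFD replicate 3. Asl had 0.57 ± 0.25 (adjusted p = 0.151) and Otc 0.34 ± 0.18 (0.219), the second of which was called without that library (0.50, 0.026). The 10 values had a median of 0.20, beside -0.15 over all genes, and 8 were above 0, or 10 after median-ratio scaling. This contrast and the comparisons before it share libraries, so their values are set side by side and are not independent.

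Ratios of 2 genes within a library do not depend on how libraries are scaled. The pairs below were chosen after the values were seen and are given without a test. Ass1 over Asl, consecutive enzymes of the cycle, was 0.510, 0.577 and 0.594 in L-iAMPK HFD+dox livers, against 0.714, 0.725 and 1.05 in L-iAMPK HFD, 0.812, 0.859 and 1.17 in iAMPK HFD+dox and 0.760, 0.858 and 0.848 in iAMPK HFD livers. The 3 L-iAMPK HFD+dox libraries lay below the other 9. Slc25a15 over Otc did the same, with 0.239, 0.245 and 0.277 in L-iAMPK HFD+dox livers and 0.285 to 0.369 in the rest. Hal over Ass1 was 0.599, 0.877 and 0.793 in L-iAMPK HFD+dox livers, above all others, while L-iAMPK HFD livers had 0.325, 0.342 and 0.329. In this ratio L-iAMPK HFD replicate 3, the high library, lay with the other replicates of its group. Cps1 over Nags separated the genotypes: it was 13.9, 9.91 and 12.97 in L-iAMPK HFD+dox livers and 10.9, 12.5 and 10.8 in L-iAMPK HFD livers, against 21.9, 15.4 and 14.8 in iAMPK HFD+dox and 17.5, 14.0 and 17.9 in iAMPK HFD livers. The gap between the 2 genotypes was narrow, with 13.93 as the highest L-iAMPK and 13.97 as the lowest iAMPK ratio.

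**Figure D3:**
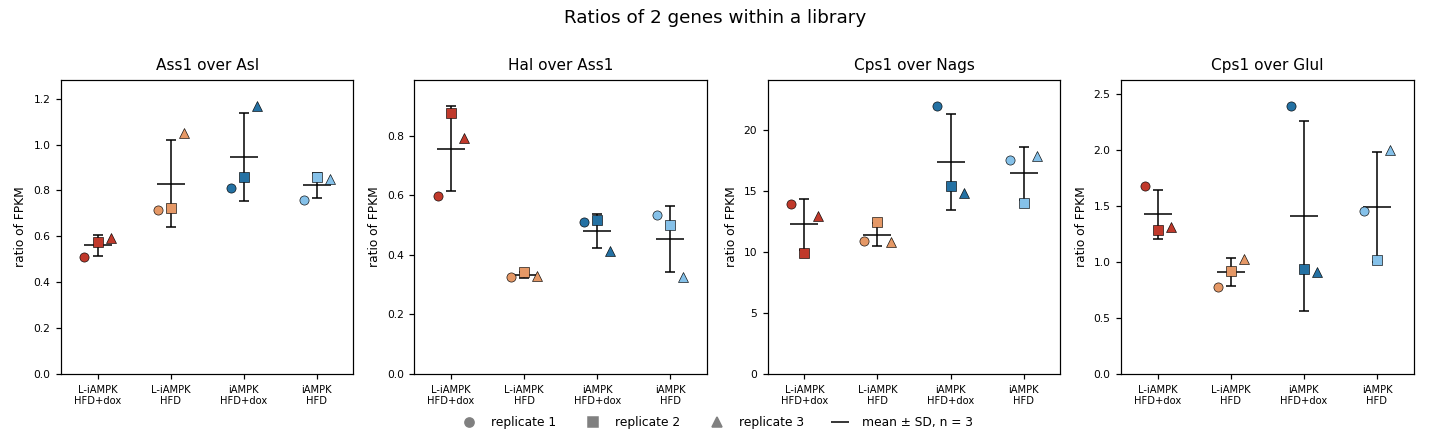
Ratio of the FPKM of 2 genes within each library (y axis, from 0) by group (x axis). Points are libraries and bars the mean ± SD of 3. Ass1 over Asl is lowest in L-iAMPK HFD+dox (0.510 to 0.594), and Hal over Ass1 is highest there (0.599 to 0.877).

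The 10 genes varied together across libraries. Over the 12 libraries Pearson's r of log2(FPKM + 0.5) was above 0 in all 45 pairs, with a median of 0.686. The points share the library and its scaling, and with group means removed 43 of 45 pairs stayed above 0, with a median of 0.67. The closest pair was Ass1 and Slc25a15 (0.957, and 0.920 with group means removed), the enzyme that takes citrulline and the carrier that returns ornithine. Arg1 stood most apart, with its highest r to Asl (0.876) and its lowest to Slc25a15 (0.279) and Nags (0.284). Hal followed Otc most closely (0.866). Such r values were not particular to the group. The pericentral marker Cyp2e1 was above 0 with all 10 genes, from 0.395 (Arg1) to 0.899 (Nags), and from 0.328 to 0.857 with group means removed. For the pericentral gene Glul r lay between -0.521 (Arg1) and 0.524 (Slc25a15). Pairs drawn from all genes were not measured.

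**Figure D4:**
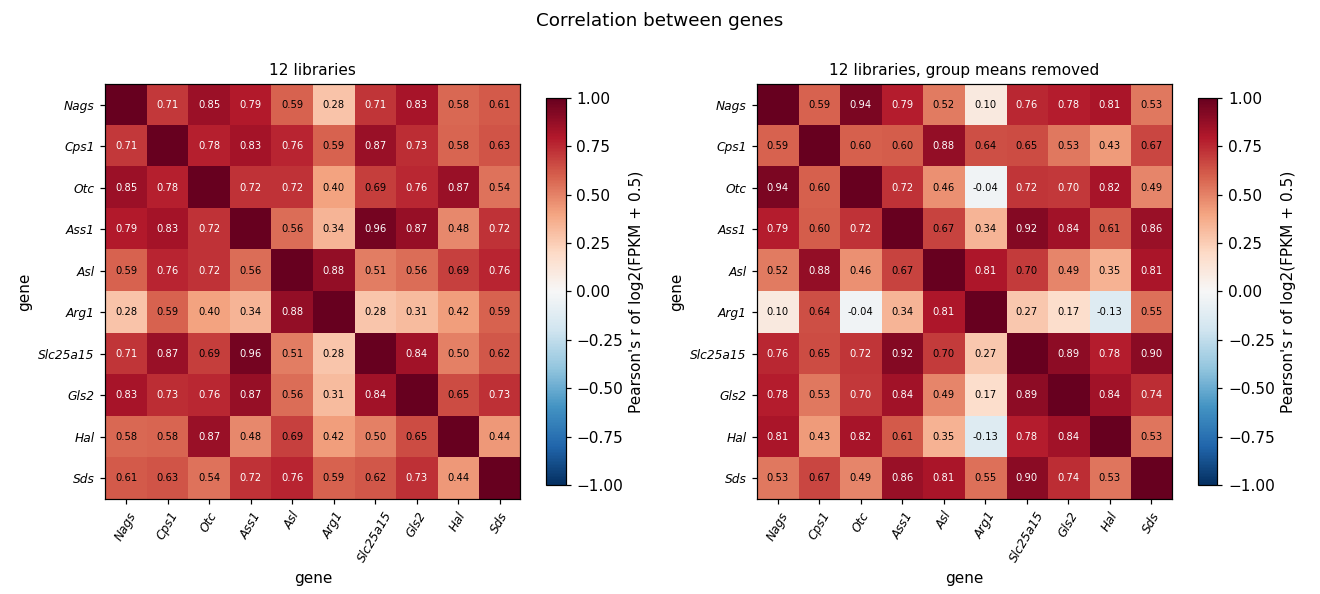
Pearson's r between genes over 12 libraries (left) and with the mean of each group removed (right), on log2(FPKM + 0.5), from -1 (blue) to 1 (red). Ass1 and Slc25a15 have the highest r on the left (0.957), and the Arg1 row is the palest.

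Among 10325 other genes the closest in pattern to each member over the 12 libraries were found by the same correlation. Hal was most like Amdhd1 (r = 0.947), which acts further down the same histidine pathway, Rgn (0.947) and Cml1 (0.945). Slc25a15 was most like Nnmt (0.976), Adh4 (0.968) and Agxt (0.962), and Ass1 was most like Nnmt (0.948), Aldh6a1 (0.947) and Hpd (0.946). Cps1 lay nearest to Mup7 (0.951), Aass (0.940) and Foxa3 (0.939), Otc to Cfhr2 (0.966), Vtn (0.963) and Tmem19 (0.936), and Nags to Hrg (0.967), Cyp2c54 (0.960) and Fxyd1 (0.959). Asl was nearest to Sec14l4 (0.932), Hyal1 (0.910) and Saa4 (0.904), Gls2 to Cth (0.932), Tmem25 (0.922) and Hgd (0.913), and Sds to Hyal1 (0.892) and Bbof1 (0.871), among those given here. Arg1 again had the loosest neighbours, Arhgef37 (0.830), Sec14l4 (0.777) and Ap3m1 (0.762).

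Of the 4 enzymes of histidine breakdown in liver, Hal and Amdhd1 were called for doxycycline in L-iAMPK and Uroc1 and Ftcd were not. For doxycycline in L-iAMPK, 2 of 9 tested genes of histidine, serine and glycine breakdown rose and 0 fell, beside 4.76% and 21.1% of all genes. Amdhd1, the imidazolonepropionase of the histidine pathway, had 55.4, 62.3 and 64.2 FPKM in L-iAMPK HFD+dox livers, against 37.6, 36.3 and 49.3 FPKM in L-iAMPK HFD livers. The groups did not overlap, as in 9.06% of all genes in this direction, and the change of 0.57 ± 0.11 (limma adjusted p = 0.0058) was kept in 22 of 22 alternatives. The second, Srr (serine racemase, 0.20, adjusted p = 0.0492), was kept in 8 of 22, and among the fits that left out 1 library only in those without L-iAMPK HFD+dox replicate 2 and without iAMPK HFD+dox replicate 1 (0.0542 to 0.151 in the rest). Uroc1, the enzyme between Hal and Amdhd1, differed by 0.11 (adjusted p = 0.364) and Ftcd, which takes the last product into folate metabolism, by -0.13 (0.32). Without doxycycline Amdhd1 fell in L-iAMPK HFD relative to iAMPK HFD livers (-0.62, adjusted p = 0.0177), as the 1 of 9 called, and the call ended when replicate 1 or 2 of L-iAMPK HFD (0.0834 and 0.0881) or replicate 1 of iAMPK HFD (0.0814) was left out. On doxycycline 0 of the 9 were called by limma or edgeR between genotypes, 2 were under 0.05 unadjusted, and the smallest p belonged to Shmt2 (-0.34, adjusted p = 0.0573) and Ftcd (-0.25, 0.0874). Tdh was listed at 0 in all 12 libraries.

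Of 4 pericentral genes that take up escaping ammonia or act beside it, Rhbg and Oat fell for doxycycline in L-iAMPK and between genotypes on doxycycline. Rhbg, an ammonium transporter, had 1.38, 2.30 and 2.53 FPKM in L-iAMPK HFD+dox livers, against 9.59, 9.28 and 14.2 in L-iAMPK HFD and 5.31, 8.15 and 6.75 in iAMPK HFD+dox livers. It fell by 2.17 relative to L-iAMPK HFD (limma adjusted p = 0.00016) and by 1.51 relative to iAMPK HFD+dox livers (0.00163) on the log2 scale. Oat, which converts ornithine to glutamate semialdehyde and so draws on an intermediate of the cycle, had 109, 117 and 199 FPKM in L-iAMPK HFD+dox livers, against 317, 318 and 504 FPKM in L-iAMPK HFD and 489, 521 and 464 FPKM in iAMPK HFD+dox livers. Its changes were -1.44 (adjusted p = 0.00265) and -1.85 (0.00103). The calls of both genes in both comparisons were kept in 22 of 22 alternatives, and in no library of the treated group did either overlap the compared groups. Of all genes 34.9% lay wholly lower for doxycycline in L-iAMPK and 23.4% between genotypes on doxycycline.

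Glutamine synthetase (Glul) and the glutamate transporter Slc1a2 were called only between genotypes on doxycycline. Glul had 215, 185 and 237 FPKM in L-iAMPK HFD+dox livers, against 248, 421 and 422 FPKM in iAMPK HFD+dox livers (-0.74, adjusted p = 0.0395), a call kept in 10 of 22 alternatives, and among the fits that left out 1 library only in those without iAMPK HFD+dox replicate 1 or an iAMPK HFD replicate (0.0504 to 0.135 in the rest). Slc1a2 changed by -0.77 (adjusted p = 0.0161) and was kept in 17 of 22, but not when replicate 1 or 2 of L-iAMPK HFD+dox (0.066 and 0.0612) or replicate 2 of iAMPK HFD+dox (0.0532) was left out, nor in edgeR, where the change was -0.10 (0.786). The deposited FPKM and tags name different transcripts of Slc1a2, as they do for 33 of 117 listed genes. Its reads per FPKM, scaled to the library total, varied 1.84-fold between libraries, against at most 1.06-fold in the 110 other genes checked. The cause of the difference between limma and edgeR was not tested. The list thus had 0 rose and 2 fell of 4 for doxycycline in L-iAMPK, beside 4.76% and 21.1% of all genes. Between genotypes on doxycycline 0 rose and 4 fell of 4, beside 4.61% and 10.3% of all genes, and edgeR called 2 of the 4. Without doxycycline 0 of 4 were called by limma or edgeR between genotypes, with 2 under 0.05 unadjusted, of which Rhbg was 0.76 higher (adjusted p = 0.0651) and Slc1a2 0.58 lower (-0.58, 0.0812). Cps1 over Glul was 1.68, 1.29 and 1.31 in L-iAMPK HFD+dox livers, against 0.778, 0.919 and 1.03 in L-iAMPK HFD livers. Both iAMPK groups, from 0.912 to 2.39 with doxycycline and from 1.02 to 2.005 without it, overlapped these groups.

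**Figure D5:**
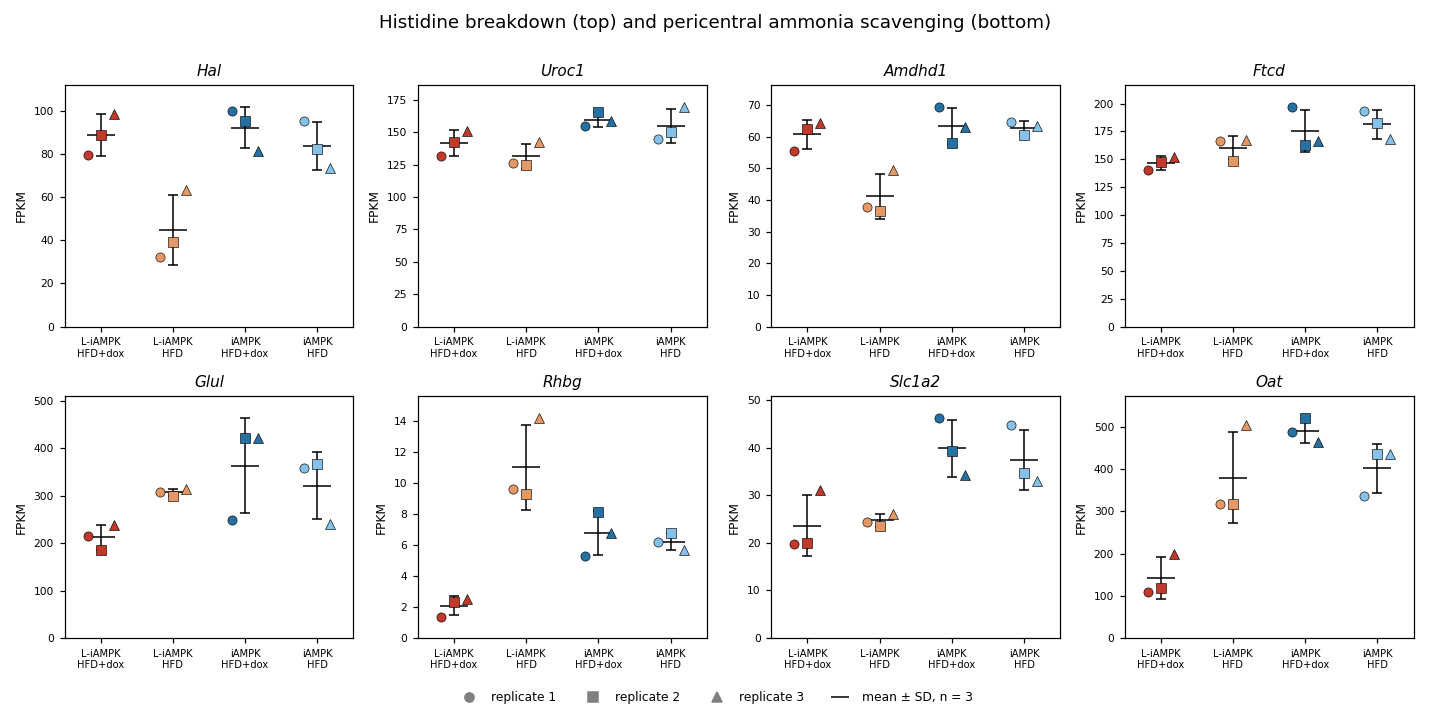
FPKM (y axis, from 0) by group (x axis) for the 4 enzymes of histidine breakdown, in the order of the pathway, and for the 4 pericentral genes of ammonia uptake. Points are libraries and bars the mean ± SD of 3. Hal and Amdhd1 are low in L-iAMPK HFD, and Rhbg and Oat are low in L-iAMPK HFD+dox (at most 2.53 and 199 FPKM).

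Genes that supply nitrogen and carriers to the cycle moved in both directions. For doxycycline in L-iAMPK 1 of 14 rose and 4 fell, beside 4.76% and 21.1% of all genes. Gpt2, a mitochondrial alanine transaminase, had 132, 88.7 and 92.4 FPKM in L-iAMPK HFD+dox livers, against 179.7, 170.0 and 187 FPKM in L-iAMPK HFD livers. Its groups did not overlap, as in 34.9% of all genes in this direction. The change of -0.80 ± 0.14 (limma adjusted p = 0.00324) was kept in 22 of 22 alternatives. Sirt5, a deacylase that acts on Cps1, changed by -0.42 (0.00716) and was lost in edgeR (0.0598). Fumarase (Fh1, -0.36, 0.00994) and mitochondrial malate dehydrogenase (Mdh2, -0.30, 0.0133) act on the fumarate that Asl releases and on its product. Both were lost after median-ratio scaling (0.143 and 0.155) and in edgeR (0.187 and 0.215), and Mdh2 also when replicate 2 of L-iAMPK HFD+dox was left out (0.051). The 1 that rose, Sirt3, another mitochondrial deacylase, was named after its value was seen (0.30, 0.0304), and it was lost when any replicate of L-iAMPK HFD+dox, or replicate 1 or 2 of L-iAMPK HFD, was left out (0.0658 to 0.113).

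Between genotypes on doxycycline 1 of these 14 genes rose and 2 fell, beside 4.61% and 10.3% of all genes. Slc25a12, an aspartate and glutamate carrier, was 0.39 higher (limma adjusted p = 0.0224), and it was lost when any of the 3 L-iAMPK HFD+dox replicates was left out (0.0543 to 0.0707). Gpt2 changed by -0.59 (0.0176) and Fh1 by -0.40 (0.00831), and both were lost in edgeR (0.141 and 0.107). Gpt2 was also lost when replicate 2 or 3 of L-iAMPK HFD+dox (0.0674 and 0.0648) or replicate 2 of iAMPK HFD+dox (0.0725) was left out. Without doxycycline 0 of 14 were called by limma or edgeR, with 4 under 0.05 unadjusted, the smallest p being those of Mdh2 (0.26, adjusted p = 0.0638) and Gpt (-0.38, 0.116).

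Transport genes and low-level relatives of the members were also measured. Slc43a1, an amino acid carrier, fell for doxycycline in L-iAMPK (-0.93, limma adjusted p = 0.0456). It was the 1 of 7 tested transport genes called there, where 21.1% of all genes fell. Among the fits that left out 1 library this call remained without replicate 1 or 3 of iAMPK HFD+dox or 2 or 3 of iAMPK HFD, and the rest gave 0.0504 to 0.119. Between genotypes on doxycycline 0 of 7 rose and 2 fell, beside 4.61% and 10.3% of all genes. The 2 were Slc43a1 (-1.49, 0.0103, kept in 22 of 22) and Slc7a2, which takes up arginine and ornithine (-0.85, 0.0335). Slc7a2 was lost when replicate 1 or 2 of either compared group was left out (0.0572 to 0.107). Without doxycycline 0 of 7 were called by limma or edgeR, with 0 under 0.05 unadjusted, and Slc7a2 differed by -0.48 (0.219) and Slc38a4 by -0.28 (0.243).

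Arg2, the isozyme of Arg1, stayed far below it in every library (0.350 to 0.675 FPKM). Of 3 tested relatives of the members, Arg2, Sdsl and Cad, 0 were called by limma or edgeR in each comparison, and Sdsl was called between genotypes on doxycycline after quantile normalization (0.0484). For doxycycline in L-iAMPK Cad differed by -0.15 (limma adjusted p = 0.41), or 0.09 after quantile normalization, and Sdsl by 0.09 (0.647), with 0 under 0.05 unadjusted. Between genotypes on doxycycline Sdsl differed by 0.30 (0.148) and Cad by -0.28 (0.166), with 1 under 0.05 unadjusted. Without doxycycline Sdsl differed by 0.30 (0.172) and Arg2 by 0.25 (0.284), with 1 under 0.05 unadjusted. The relative Slc25a2 and the transporter Slc14a1 did not pass the filter on low values.

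Among 15 regulators known to act on urea cycle or fasting genes in liver, 2 rose and 3 fell for doxycycline in L-iAMPK. Of all genes 4.76% rose and 21.1% fell there. Cebpa, whose product activates many hepatocyte metabolic genes, was 0.38 higher (limma adjusted p = 0.0215), and it was lost when replicate 2 or 3 of L-iAMPK HFD+dox (0.0534 and 0.0688) or replicate 1 or 2 of L-iAMPK HFD (0.0802 and 0.0753) was left out. Foxa2, a forkhead factor of hepatocytes named after its value was seen, was 0.66 higher (0.0278), and it was lost when any replicate of L-iAMPK HFD+dox, or replicate 1 or 2 of L-iAMPK HFD, was left out (0.0523 to 0.0965). Foxo3 (-0.58, 0.0101), Foxo1 (-0.47, 0.0112) and Ppara (-0.41, 0.0254) fell. Foxo3 was lost after quantile normalization (0.0514) and Foxo1 after both other scalings and in edgeR (0.0799 to 0.0876). Ppara was lost in the same 3 settings (0.0787 to 0.224) and when replicate 1 or 2 of either L-iAMPK group was left out (0.0539 to 0.087).

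The glucagon receptor gene Gcgr differed by genotype. It had 98.7, 104 and 99.2 FPKM in L-iAMPK HFD+dox livers, against 133, 123 and 124 FPKM in iAMPK HFD+dox livers, and 100.1, 92.0 and 111 FPKM in L-iAMPK HFD livers, against 138, 134 and 127 FPKM in iAMPK HFD livers. Neither pair of groups overlapped, as in 23.4% of all genes in this direction on doxycycline and 6.8% without it. The change was -0.34 on doxycycline (limma adjusted p = 0.0148), lost after median-ratio scaling (0.086), in edgeR (0.137) and when replicate 1 of L-iAMPK HFD+dox was left out (0.0529). It was -0.40 without doxycycline (0.0201), lost when replicate 1 or 2 of either group was left out (0.0515 to 0.0934). With Gcgr 0 of 15 regulators rose and 2 fell on doxycycline, beside 4.61% and 10.3% of all genes. The other was Trp53 (-0.47, 0.0336), which was lost when any replicate of L-iAMPK HFD+dox, or replicate 2 or 3 of iAMPK HFD+dox, was left out (0.054 to 0.115). Without doxycycline 0 rose and 1 fell, beside 3.04% and 1.27% of all genes. Over the 12 libraries, which share these groups and their scaling, Gcgr had an r between 0.274 (Arg1) and 0.874 (Slc25a15) with the 10 genes. With group means removed r lay between -0.11 (Arg1) and 0.764 (Nags), with 0.689 for Hal, 0.63 for Otc, 0.608 for Gls2 and 0.393 for Slc25a15. For other regulators r over the 12 libraries was -0.149 to 0.673 (Cebpa), 0.164 to 0.584 (Hnf4a) and -0.02 to 0.592 (Nr3c1). It was -0.274 to 0.494 for Ppargc1a and -0.482 to 0.241 for Cebpb. Cyp2e1, a pericentral marker and not a listed regulator, had 0.395 to 0.899, so such values were not particular to Gcgr.

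Other periportal genes were also measured, and no test compared them with the 10 genes described here. Beside 4.76% of all genes, 2 of 5 gluconeogenic enzymes rose for doxycycline in L-iAMPK. They were Fbp1 (0.92, limma adjusted p = 0.000541, kept in 22 of 22) and G6pc (1.35, 0.0249), which was lost when any replicate of L-iAMPK HFD+dox, or replicate 1 or 2 of L-iAMPK HFD, was left out (0.0561 to 0.0865). Between genotypes 1 of 5 rose on doxycycline (Fbp1, 0.60, 0.00636, kept in 22 of 22), beside 4.61% of all genes. Without it 0 were called by limma or edgeR, with 0 under 0.05 unadjusted, and Tat differed by -0.79 (0.242) and Fbp1 by -0.17 (0.366), or 0.01 after quantile normalization.

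Of 10 further periportal markers 3 rose and 4 fell for doxycycline in L-iAMPK, beside 4.76% and 21.1% of all genes. Pigr, an immunoglobulin transporter, fell by 1.39 on the log2 scale (limma adjusted p = 0.00858, kept in 22 of 22). Hsd17b13 changed by -0.76 (0.0155), Apof by 0.36 (0.0181) and Etnppl by 0.79 (0.0255), and each was lost when replicate 1 (0.0577 to 0.0817) or 2 (0.0539 to 0.0741) of L-iAMPK HFD was left out. From L-iAMPK HFD+dox the loss of replicate 1 ended the call for Hsd17b13 (0.0564), of 3 for Apof (0.0627), and of 2 or 3 for Etnppl (0.085 and 0.0741). The remaining calls, named after their values were seen, were Hsd17b6 (0.59), Mfsd2a (-1.66) and Aldh1b1 (-0.56), all lost when replicate 1 of L-iAMPK HFD+dox or replicate 1 or 2 of L-iAMPK HFD was left out (0.0589 to 0.137). Between genotypes 0 rose and 2 fell on doxycycline, Pigr (-2.47, 0.000781, kept in 22 of 22) and Hsd17b6 (-0.58, 0.0402, kept in 9 of 22 and lost when any replicate of L-iAMPK HFD+dox was left out, 0.0644 to 0.131). Without doxycycline 0 rose and 3 fell, Hsd17b6 (-1.22, 0.00678, kept in 22 of 22), Etnppl (-1.36, 0.015) and Pigr (-1.25, 0.0447). The loss of L-iAMPK HFD replicate 1 or 2 ended the calls of Etnppl (0.0709 and 0.0743) and Pigr (0.159 and 0.151). Over all genes 4.61% rose and 10.3% fell between genotypes on doxycycline, and 3.04% rose and 1.27% fell without it.

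Pericentral markers also held genes moving in either direction, with 1 of 11 risen and 3 fallen for doxycycline in L-iAMPK and 0 risen and 4 fallen between genotypes on doxycycline. Over all genes 4.76% rose and 21.1% fell in the first of these comparisons, and 4.61% rose and 10.3% fell in the second. Rgn, which encodes a calcium-binding protein and was among the genes closest to Hal in pattern, was 0.92 higher (limma adjusted p = 0.00799, kept in 22 of 22) with doxycycline in L-iAMPK. It changed by -0.97 (0.0246) in L-iAMPK HFD relative to iAMPK HFD livers, as the 1 of 11 called there, and was lost when L-iAMPK HFD replicate 1 or 2 or any iAMPK HFD replicate was left out (0.0535 to 0.11). Cyp2a5 (-1.16), Nkd1 (-0.50) and Lhpp (-0.49) fell with doxycycline in L-iAMPK, and Nkd1 (-0.62), Lhpp (-0.62), Cyp1a2 (-1.22) and Lgr5 (-0.63) between genotypes on doxycycline. Each of these 7 calls was lost when L-iAMPK HFD+dox replicate 1 (0.0614 to 0.134) or 2 (0.0569 to 0.156) was left out.

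None of the defining markers of other liver cells was at 0 in the libraries. For doxycycline in L-iAMPK 0 of 5 stellate cell markers rose and 4 fell, beside 4.76% and 21.1% of all genes. Lrat had 1.85 to 3.05 FPKM in L-iAMPK HFD+dox livers, against 6.62 to 9.72 FPKM in L-iAMPK HFD livers, and Des at most 1.15 against at most 1.77 FPKM. Lrat (-1.57) and Rgs5 (-0.53) were kept in 22 of 22 alternatives, while Col3a1 (-1.94) and Des (-0.46) were lost when replicate 1 of L-iAMPK HFD+dox or replicate 1 or 2 of L-iAMPK HFD was left out (0.0585 to 0.0749). Endothelial markers summed to 68.5, 76.5 and 87.7 FPKM in L-iAMPK HFD+dox livers, against 98.7, 92.2 and 86.1 FPKM in L-iAMPK HFD livers, with 0 of 6 risen and 3 fallen. Stab2 had 7.44 to 9.47 against 9.27 to 12.5 FPKM and Pecam1 6.27 to 6.56 against 9.40 to 10.2 FPKM. Pecam1 (-0.58) and Oit3 (-0.62) were kept in 22 of 22, and Stab2 (-0.40) was lost when replicate 1 or 2 of either L-iAMPK group was left out (0.0913 to 0.127).

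Cholangiocyte markers summed to 17.6, 20.9 and 22.5 FPKM in L-iAMPK HFD+dox livers, against 91.0, 153 and 38.0 FPKM in L-iAMPK HFD livers, nearly all of it Spp1. Krt19 reached at most 0.878 against 2.46 FPKM and Krt7 at most 0.225 against 1.09 FPKM, and Krt7, the 1 of 5 that fell (-0.84), was lost when L-iAMPK HFD replicate 2 was left out (0.0599). Macrophage markers summed to 82.8, 139 and 117 FPKM against 142, 148 and 124 FPKM, with 0 of 6 called by limma or edgeR and 1 under 0.05 unadjusted. Clec4f had 36.5 to 62.8 FPKM in L-iAMPK HFD+dox livers, against 53.7 to 64.1 FPKM in L-iAMPK HFD livers, and Cd68 7.19 to 11.6 against 11.3 to 16.7 FPKM. The summed endothelial and macrophage levels overlapped between these groups, and the part of any of these markers in the results for the 10 genes was not tested.

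Between genotypes on doxycycline 3 of 5 stellate cell markers fell, beside 10.3% of all genes. Of these markers Lrat (-1.11) was kept in 22 of 22. Rgs5 (-0.45) and Col3a1 (-1.67) were lost when any replicate of L-iAMPK HFD+dox, or replicate 2 or 3 of iAMPK HFD+dox, was left out (0.0503 to 0.138). Of the endothelial, macrophage and cholangiocyte markers 0 were called by limma or edgeR there, with 4, 1 and 1 under 0.05 unadjusted. Calls were gained by Stab2 (0.0464) and Pecam1 (0.0474) with the filter at 2 FPKM, and without iAMPK HFD+dox replicate 1 by Stab2 (0.0417), Pecam1 (0.00368), Cd68 (0.0448) and Spp1 (0.0214). Stab2 was also called when replicate 3 of L-iAMPK HFD+dox (0.045) or of L-iAMPK HFD (0.0249) was left out. Without doxycycline Pecam1 rose (0.46, limma adjusted p = 0.0474), as the 1 of 6 endothelial markers called. Among the fits that left out 1 library that call remained without L-iAMPK HFD replicate 3 or iAMPK HFD+dox replicate 1 or 3, and the rest gave 0.0613 to 0.156. In the same comparison 0 stellate, macrophage or cholangiocyte markers were called by limma or edgeR, with 1, 4 and 1 under 0.05 unadjusted. Of 4 hepatocyte markers tested Ttr was 0.38 higher with doxycycline in L-iAMPK (0.0201), but 0.00 after quantile normalization, and it was lost when replicate 2 of L-iAMPK HFD+dox or replicate 1 or 2 of L-iAMPK HFD was left out (0.0562 to 0.0759). Apoa1 changed by -0.75 (0.0488) between genotypes on doxycycline. Its call remained only without L-iAMPK HFD+dox replicate 1, L-iAMPK HFD replicate 3 or iAMPK HFD replicate 3 among those fits, and without doxycycline 0 of 4 were called by limma or edgeR, with 1 under 0.05 unadjusted.

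The authors' deposited table gives fold changes of L-iAMPK HFD+dox over each other group, from their own processing. Relative to L-iAMPK HFD livers the authors' deposited table lists Hal at 1.16 (adjusted p = 8.18e-06), Asl at 0.60 (0.00925) and Arg1 at 0.41 (0.0403), all on the log2 scale, and Otc at 0.43 (0.0768). Relative to iAMPK HFD+dox livers the authors' deposited table lists Ass1 at -0.59 (0.0025), Slc25a15 at -0.47 (0.0218) and Cps1 at -0.51 (0.165). Relative to iAMPK HFD livers, which differ in both genotype and doxycycline, the authors' deposited table lists Ass1 at -0.61 (0.00552), Slc25a15 at -0.45 (0.0201) and Cps1 at -0.54 (0.0428), and the other 7 genes are not past 0.05 there. Hal and Slc25a15 are thus past 0.05 in the authors' table and in limma over all 12 libraries, while Asl, Arg1 and Ass1 are past 0.05 in the authors' table and not in that limma fit, Ass1 being called in the alternatives given above.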

How the data were processed

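Per the labels' protocols, a Zymo kit (Quick-RNA MiniPrep) gave the liver RNA and a TruSeq stranded mRNA kit the libraries. The sources used here do not say whether reads were counted by strand. Per the submitters' processing notes FastQC, STAR 2.4.0k, HOMER, edgeR 3.6.8 and mm10 were used, with no roles stated. The deposited FPKM values are at least 0.5 in every library, which was read from the values as an offset added by the authors and subtracted here. The authors also deposited signal values, scaled tag numbers of each gene, with their log2 fold changes and p-values for 3 comparisons. Dividing the scaled tags by the worth of 1 read gave whole numbers (within 0.02) for 100.0% of the lower values checked in all 12 libraries. In replicate 2 of iAMPK HFD+dox 1 read is worth 0.995 scaled tags. Whole reads could not be told from scaled tags there, so reads were taken as recovered in 11 libraries.

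Genes at 0.5 FPKM or more in at least 3 of 12 libraries (12614) were fitted as log2(FPKM + 0.5), in one limma 3.58.1 model (R 4.3.3) of the 4 groups with an intensity trend and robust moderation. A pseudocount understates the change of low genes. Benjamini-Hochberg adjusted p under 0.05 was called. Of the 12614 genes, 5021 had an unadjusted p under 0.05 for doxycycline in L-iAMPK and 786 for doxycycline in iAMPK. Between genotypes these were 3950 on doxycycline and 3223 without it, and for the interaction 4071. The scripts were tested on simulated data. Alternatives were 2 other scalings, 2 pseudocounts, 2 filters, no trend, a replicate block, only the compared libraries, each library left out, and, chosen after seeing the data, edgeR 4.0.16 on the recovered reads of those 11 libraries, without replicate 2 of iAMPK HFD+dox. A leave-one-out fit shares its spread over the remaining 11 libraries.

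The members and lists were chosen with earlier results of these data known. Every member is named. Of each other list up to 4 called genes with the smallest p in a comparison are named, or, with 0 called, the 2 lowest in p. The first 2 markers of each other cell type are named by level, and the 3 genes most correlated with each member, among those with a mean FPKM of at least 1. In the tag table the Ass1 row carries another transcript's name and position, but its tags per FPKM imply a length of 1613, that of Ass1 in the FPKM table. The Gls2 row names another transcript (2469 against 2440 bases), as do those of 33 of 117 listed genes in all. Same-numbered libraries of different groups correlated from -0.275 to 0.446, so the numbers were not taken as pairs. Some results the naming rule would give are not reported here. Of the listed genes, Tf was not matched in the tables and was not used here.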

Additional observations from a re-analysis of the deposited data

Results flagged for a closer look

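For 14 of 104 tested genes of the lists around the urea cycle (13.5%), and for 0 of the 10 urea cycle and ammonia genes, limma found that the effect of doxycycline differed between L-iAMPK and iAMPK livers (the interaction, adjusted p under 0.05). This share is close to the 13.2% of all genes called. In the values below a negative number means a lower change in L-iAMPK. Rhbg had -2.26 (adjusted p = 0.0031), Oat -1.74 (0.0136), Fbp1 0.77 (0.0161), Lrat -1.60 (0.0149) and Pecam1 -0.82 (0.0132), and these calls held in all 21 alternatives. Gpt2 had -0.72 (0.0371), Sirt3 0.44 (0.0416) and Amdhd1 0.56 (0.0433). Hsd17b13 had -0.93 (0.0439), Rgn 0.98 (0.0412), Cd68 -1.53 (0.0326) and Col3a1 -2.58 (0.0365). Rgs5 had -0.63 (0.0324) and Oit3 -0.61 (0.039). The calls of these last 9 genes were kept in 7 to 12 of their alternatives, and each was lost without L-iAMPK HFD replicate 2.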

How the results depend on the processing

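Of 1090 values of the 10 genes under the alternatives, 1008 kept their direction and side of the threshold, 12 lost and 17 gained a call and 53 changed sign; of 2437 for the other named genes these were 1990, 419, 23 and 5. The cause of these changes was not tested. No value of the 10 genes that changed sign was called. For doxycycline in L-iAMPK, median-ratio scaling turned Ass1 (0.025) and Slc25a15 (0.0442), quantile normalization Slc25a15 (0.0063), Cad (0.0943 against -0.15) and Ttr (0.0), and edgeR Slc25a15 (0.0393). Between genotypes on doxycycline, the same 3 settings gave Hal 0.0372, 0.0207 and 0.0441 and Sds 0.0115, 0.0158 and 0.0098. For doxycycline in iAMPK, edgeR gave Cps1 0.0879 and median-ratio scaling Gls2 -0.0157. Quantile normalization gave Fbp1 0.0089 between genotypes without doxycycline. For the interaction, median-ratio scaling gave Ass1 0.0203 and Slc25a15 0.0162, and edgeR Slc25a15 0.0094. Leaving out 1 library gave ranges across 0. For doxycycline in L-iAMPK these were -0.0591 to 0.1559 for Nags, -0.0262 to 0.2731 for Cps1, -0.3261 to 0.1522 for Ass1, -0.2123 to 0.0277 for Slc25a15, -0.1463 to 0.334 for Gls2, -0.1915 to 0.3538 for Sds and -0.0102 to 0.1468 for Sdsl. On doxycycline, those between genotypes were -0.1024 to 0.1787 for Asl, -0.0297 to 0.1605 for Arg1, -0.1392 to 0.0265 for Hal, -0.2169 to 0.1021 for Sds and -0.4814 to 0.022 for Csf1r. For doxycycline in iAMPK they were -0.223 to 0.0908 for Cps1, -0.1263 to 0.0161 for Otc, -0.0614 to 0.1644 for Ass1, -0.2006 to 0.0238 for Arg1, -0.087 to 0.0935 for Gls2 and -0.3097 to 0.032 for Sds. For the interaction they were -0.0063 to 0.3318 for Cps1, -0.3604 to 0.1178 for Ass1, -0.1601 to 0.3201 for Gls2 and -0.0026 to 0.5427 for Sds. Median-ratio scaling gave 2 called members for doxycycline in L-iAMPK and 1 for the interaction. Between genotypes on doxycycline the filter at 2 FPKM, the replicate block and only the compared libraries gave 2 each, and edgeR 0. Between genotypes without doxycycline the replicate block, only the compared libraries and edgeR gave 0 each. Leaving out 1 library gave 1 to 2 for doxycycline in L-iAMPK, 1 to 2 on doxycycline, 0 to 7 without it and 0 to 2 for the interaction.

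Over all genes, leaving out 1 library gave 1871 to 3743 calls for doxycycline in L-iAMPK, 907 to 2445 between genotypes on doxycycline, 0 to 1 for doxycycline in iAMPK, 37 to 1438 between genotypes without it and 528 to 2801 for the interaction. EdgeR called 1083 on doxycycline, 358 without it and 736 for the interaction, and only the compared libraries called 335 without it. With the replicate number as a block 2919, 1626, 0, 404 and 1431 genes were called, against 3259, 1882, 0, 544 and 1663. The numbers are not known to pair libraries: 2, 3, 2 and 2 of 6 libraries correlated best with their own number in the 4 pairs of groups. With 3 libraries a group, any difference inside an interval given remains compatible with the data, though each member rested on at least 928 reads per library.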
